A study of Mus musculus with 6 samples.

Results

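The genes described here are the 6 members of the insulin-like growth factor (IGF) binding protein family Igfbp2 to Igfbp7, the receptor genes Igf1r and Insr, and the receptor substrate genes Irs1 and Irs2, in 3 established mouse mammary lines. They were chosen by symbol, all 10 were among the 11417 genes of the deposited table, and all 10 passed the filter on low values. Poly(A) RNA of BC44, HC11 and C57MG cells was sequenced as strand-directional libraries, with 2 replicates of each line. Per the labels, untreated cells on plastic were collected 2 days after plating. HC11 comes from the mammary gland of mid-pregnant mice, and C57MG is known from assays of transformation by Wnt genes. BC44 was kept in RPMI1640 with 10% serum and 5 µg/ml insulin. HC11 had the same medium plus 10 ng/ml epidermal growth factor (EGF), and C57MG had DMEM with 10% serum and 10 µg/ml insulin. All cells therefore received insulin, and line and medium cannot be told apart. The labels do not say whether the libraries of a line came from separate cultures, so p-values measure the spread between these libraries, which may be technical.

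IGFs and insulin act through the related tyrosine kinase receptors encoded by Igf1r and Insr, which phosphorylate the docking proteins IRS1 and IRS2 and so engage PI3K and Akt. The secreted binding proteins hold IGFs with high affinity and can block or prolong their access to the receptor, while IGFBP7 binds IGFs only weakly. In the mammary gland IGFBP5 is known as a product of the involuting epithelium, and IGF signalling supports ductal growth and cell survival.

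The regulatory stretches of Igfbp2, Igfbp3, Igfbp4 and Igfbp5 are shown because these genes differed most between the lines and because Igfbp2 and Igfbp5 are consecutive protein-coding genes on chromosome 1. Each sequence is the 250 bases before the most upstream RefSeq start, 5′ to 3′ on the gene's own strand, from the RefSeq promoters of build GRCm38.p6. Capitals mark every match, on either strand, to a TATA box (TATAAA), a GC box (GGGCGG), an E-box (CACGTG), a GRHL-type motif (AACNNGTT) or an AP-1-type motif (TGANTCA), and no match overlapped another. The windows are chr1:72824230-72824479 (plus strand) for Igfbp2, chr11:7213924-7214173 (minus strand) for Igfbp3, chr11:99040994-99041243 (plus strand) for Igfbp4 and chr1:72874866-72875115 (minus strand) for Igfbp5. The submitters' processing notes name the build mm9, so these coordinates are not those of the deposited table.
Igfbp2: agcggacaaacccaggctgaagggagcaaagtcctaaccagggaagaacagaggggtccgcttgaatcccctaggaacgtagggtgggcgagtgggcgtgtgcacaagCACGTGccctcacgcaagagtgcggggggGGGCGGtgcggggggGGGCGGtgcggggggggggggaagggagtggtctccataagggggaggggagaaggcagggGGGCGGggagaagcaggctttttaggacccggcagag
Igfbp3: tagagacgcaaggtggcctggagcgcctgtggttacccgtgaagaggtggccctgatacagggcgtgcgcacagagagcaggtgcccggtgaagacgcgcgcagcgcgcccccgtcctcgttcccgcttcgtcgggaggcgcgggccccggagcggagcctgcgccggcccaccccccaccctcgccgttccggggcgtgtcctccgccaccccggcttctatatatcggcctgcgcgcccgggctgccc
Igfbp4: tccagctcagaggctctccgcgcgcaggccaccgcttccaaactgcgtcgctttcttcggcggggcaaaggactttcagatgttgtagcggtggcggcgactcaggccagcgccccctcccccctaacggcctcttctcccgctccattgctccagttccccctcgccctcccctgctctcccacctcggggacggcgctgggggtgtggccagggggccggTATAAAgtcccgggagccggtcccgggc
Igfbp5: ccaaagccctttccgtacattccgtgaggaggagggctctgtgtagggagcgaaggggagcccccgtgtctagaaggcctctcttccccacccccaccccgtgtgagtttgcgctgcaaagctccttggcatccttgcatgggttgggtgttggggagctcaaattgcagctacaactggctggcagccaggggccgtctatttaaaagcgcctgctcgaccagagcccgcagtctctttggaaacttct

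Igfbp2 and Igfbp5 lie side by side in opposite orientation, and their windows differ. The Igfbp2 window holds 3 GC boxes and 1 E-box, and 67.2% of its bases are G or C. The Igfbp5 window holds none of the 5 motifs, and 58.8% of its bases are G or C. The Igfbp4 window has 1 TATA box, starting at position -28 from the transcript start, and the Igfbp3 window has none of the 5 motifs at a G and C share of 73.2%. Among the windows of 27025 genes of the same length, 33.0% held a GC box, 13.0% the TATA box, 6.04% the E-box, 6.85% the AP-1-type motif and 3.65% the GRHL-type motif. Of the other members in the promoter table, Igfbp6 held 1 TATA box letter match on the opposite strand at -148, Igfbp7 held 4 GC boxes, Igf1r and Irs1 held 2 each and Irs2 held 1, and Irs1 and Irs2 also held 1 E-box each. Insr had no entry. A match describes the letters of the window only.

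Levels are in RPKM, the reads on a gene per kilobase of its length and per 1000000 reads of the library, which allows levels of different genes to be compared. Depth was estimated from the steps of the low values at 14050000 to 18540000 reads per library. Of the 11 listed epithelial markers, all 11 reached 1 RPKM in both HC11 libraries and 8 in both BC44 libraries, but only 3 and 1 did in C57MG replicates 1 and 2. The epithelial marker sum was 5071 and 4863 RPKM for BC44, 3159 and 2278 for HC11, and 137 and 65.5 for C57MG, where Krt14 alone made up 118.0 and 64.75 RPKM and Epcam, Cdh1, Cldn4 and Esrp1 were at 0 in replicate 2. Most of the BC44 sum came from Krt14 (2716 and 2736 RPKM) and Krt5 (2012 and 1828 RPKM). BC44 had Epcam at 118.1 and 92.06 RPKM but Krt18 and Cldn3 at 0 in both libraries. Krt8 was at 0.038 and 0.064 RPKM in BC44 and 144.4 and 148.0 in HC11. Epcam, Krt8, Krt18, Cldn3 and Cldn4 were higher in HC11 than in BC44. Krt5, Krt14, Cdh1, Esrp1 and Grhl2 were higher in BC44, and Ovol1 overlapped. Most listed epithelial markers were thus near or at 0 in C57MG. The sum of 14 listed mesenchymal or fibroblast markers was 7413 and 7183 RPKM in C57MG against 261 to 383 RPKM in the other 4 libraries. Most of the C57MG sum came from S100a4 (3684 and 3794 RPKM) and Vim (2708 and 2282 RPKM). Dcn alone went the other way, at 0 in C57MG and BC44 and 1.679 and 3.784 RPKM in HC11. Only 1 of 6 leukocyte, 2 of 4 endothelial and 1 of 4 adipocyte markers were listed, with sums of at most 3.30, 2.38 and 8.77 RPKM in any library.

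Some libraries held a low level of genes that were high in another line, which bears on how low values are read here. Whether such levels came from the other line or from low expression in the library's own line was not tested. Genes private to C57MG stood at a median of 0.666% of their C57MG mean in BC44 replicate 1 (71 genes) and 2.02% in BC44 replicate 2 (70 genes). Genes private to BC44 stood at a median of 0.802% of their BC44 mean in C57MG replicate 1 (10 genes), and 8 of 10 were listed at 0 in replicate 2. Private means at least 20 RPKM in that line, at most 2% of it in the third line and at most 5% in the other replicate, and the members were left out. In HC11 replicates 1 and 2 the private genes of C57MG had medians of 0.251% and 0.340% (61 and 66 genes), and those of BC44 2.77% and 1.22% (17 genes each). The share of private genes within 2-fold of their median was 63.4% and 97.1% for C57MG genes in BC44 replicates 1 and 2 and 80.0% for BC44 genes in C57MG replicate 1. In HC11 it was 23.0% and 22.7% for C57MG genes and 64.7% and 47.1% for BC44 genes. Values of BC44 replicate 2 and C57MG replicate 1 are therefore given apart.

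The summed RPKM of the 6 binding protein genes was nearly level across the lines, but its make-up was not. The sums were 745 and 726 RPKM for BC44, 651 and 586 for HC11, and 592 and 637 for C57MG. The HC11 and C57MG libraries overlapped, and both BC44 libraries were higher than the other 4. In BC44, Igfbp3 made up 46.3% ± 4.78, Igfbp5 30.3% ± 5.40 and Igfbp2 17.1% ± 0.0447 of the sum (SD, n = 2). In HC11 Igfbp5 made up 68.7% ± 8.24 and Igfbp3 27.7% ± 7.51 (SD, n = 2). In C57MG Igfbp4 made up 56.8% ± 0.974, Igfbp7 37.0% ± 1.84 and Igfbp6 5.75% ± 0.270 (SD, n = 2). Igfbp3 and Igfbp5, which held most of the sum in BC44 and HC11, made up 0.460% and 0.274% of it in C57MG replicate 1 and 0.00644% and 0.00173% in C57MG replicate 2. Igfbp2 made up 0.127% and 0.00550% in the same C57MG libraries and 0.00890% and 0.0193% in those of HC11. These shares were not tested. In bulk RNA, fewer cells expressing a gene and less RNA per cell cannot be told apart.

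**Figure D1:**
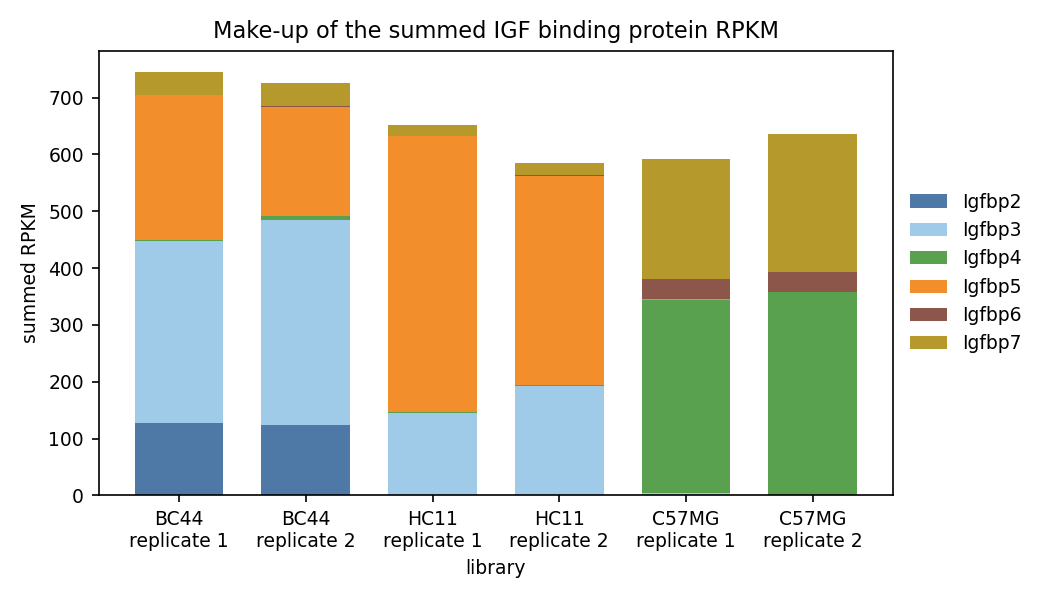
Stacked bars give the RPKM of Igfbp2 to Igfbp7 in each of the 6 libraries, so that bar height is their sum in RPKM. The bars reach 586 to 745 RPKM, with Igfbp3 and Igfbp5 leading in BC44 and HC11 and Igfbp4 and Igfbp7 leading in C57MG.

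Across all tested genes, 47.7% differed between BC44 and HC11, 71.7% between BC44 and C57MG and 70.5% between HC11 and C57MG at a limma adjusted p under 0.05. Of the 10 members 5, 8 and 7 passed in the same order, shares close to those backgrounds. In BC44 against HC11, 3 passed toward BC44 (background 24.7%) and 2 toward HC11 (23.0%). Between BC44 and C57MG 4 passed each way (37.5% and 34.1%). Between HC11 and C57MG 4 passed toward HC11 (37.4%) and 3 toward C57MG (33.2%). The members' differences were of a larger size, since the median absolute log2 fold change of the members was 0.95, 3.53 and 2.03, against 0.30, 0.57 and 0.53 over the 10759 genes tested. All fold changes on the log2 scale are of RPKM + 1, so that changes of low genes come out too small. The 3 comparisons share libraries, so their results are not independent.

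**Figure D2:**
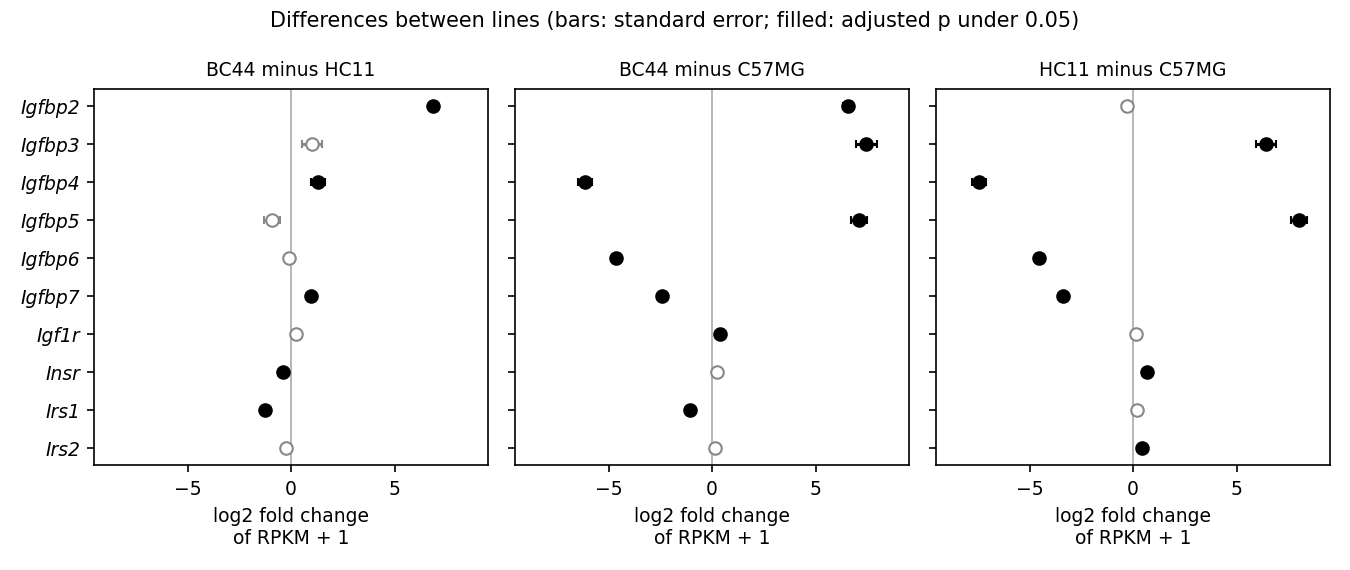
Each point is the log2 fold change of RPKM + 1 of a member gene in 1 of the 3 comparisons, with its standard error as a bar, and filled points had a limma adjusted p under 0.05. The binding proteins range from -7.44 to 8.02 and the receptors and substrates from -1.24 to 0.65.

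Igfbp2 (ENSMUSG00000039323), whose product carries an integrin-binding motif besides its IGF site, was abundant in BC44 and near 0 in the other lines. BC44 libraries read 127.8 and 124.1 RPKM, those of HC11 0.058 and 0.113, and C57MG replicates 1 and 2 read 0.749 and 0.035. The BC44 libraries stood apart from the other 4, while HC11 and C57MG overlapped. Igfbp2 passed the filter on low values only through the BC44 libraries, so p-values for BC44 against the other lines are no separate support. The HC11 values rest on an estimated 2 and 3 reads, giving a BC44 to HC11 ratio of 1516 with an exact 95% Poisson interval of 650 to 4669 that covers counting error only. BC44 exceeded HC11 by a log2 fold change of 6.87 (SE 0.22, limma adjusted p = 1.444e-06) and C57MG by 6.56 (SE 0.22, 3.212e-07), or 6.94 without C57MG replicate 1. C57MG replicate 1 held 0.595% of the BC44 mean of Igfbp2, beside the 0.802% of genes private to BC44, and C57MG replicate 2 an estimated 1 read. The HC11 values were 0.0461% and 0.0897% of the BC44 mean, below the HC11 medians of 2.77% and 1.22% for genes private to BC44. Between HC11 and C57MG Igfbp2 did not pass (-0.31, 0.242). It passed there under quantile normalization (-0.57, limma adjusted p = 0.0211) and without C57MG replicate 2 (-0.69, 0.00440), and had the other sign without C57MG replicate 1 (0.07, 0.708).

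Igfbp5 (ENSMUSG00000026185), the neighbour of Igfbp2, was high in HC11 and BC44. Its product binds IGFs and matrix. HC11 libraries read 485.4 and 368.1 RPKM, those of BC44 254.0 and 192.1, and C57MG replicates 1 and 2 read 1.622 and 0.011. Every HC11 library was above every BC44 library, and both lines were far above C57MG. In HC11 it ranked 94th of 11417 genes by mean RPKM, the highest rank of any member. HC11 exceeded C57MG by 8.02 on the log2 scale (SE 0.40, limma adjusted p = 1.818e-06) and BC44 exceeded it by 7.09 (SE 0.40, 2.904e-06). In C57MG replicate 1 Igfbp5 stood at 0.727% of its BC44 mean and 0.380% of its HC11 mean. The HC11 mean was 263 times the value of C57MG replicate 1. Replicate 2 rests on an estimated 1 read, and without replicate 1 the log2 fold changes were 8.71 and 7.78. BC44 was 1.91-fold lower than HC11, with a log2 fold change of -0.93 (SE 0.40) that did not pass (limma adjusted p = 0.0908). The standard error there is shared with the C57MG libraries, which differed 147-fold from each other. With only the 4 BC44 and HC11 libraries the same difference passed (limma adjusted p = 0.00758), as it did without C57MG replicate 1 (0.00349), without C57MG replicate 2 (0.00348) and with the replicate number as a block (0.00920).

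Igfbp3 (ENSMUSG00000020427), which encodes the main IGF carrier of serum, had the reverse order in the same pair of lines. BC44 libraries read 320.0 and 360.9 RPKM, those of HC11 145.6 and 193.1, and C57MG replicates 1 and 2 read 2.723 and 0.041. No line overlapped another. The BC44 mean was 2.01 times that of HC11, a log2 fold change of 1.01 (SE 0.50) that did not pass (limma adjusted p = 0.136). As for Igfbp5, the C57MG libraries were 66.4-fold apart, and with only the BC44 and HC11 libraries the difference passed (limma adjusted p = 0.00257), as it did without C57MG replicate 1 (0.00105) or without C57MG replicate 2 (0.00103). BC44 exceeded C57MG by 7.44 on the log2 scale (SE 0.50, limma adjusted p = 7.558e-06) and HC11 exceeded it by 6.42 (SE 0.50, 1.933e-05), or 8.35 and 7.34 without C57MG replicate 1. The value of C57MG replicate 1 was 0.800% of the BC44 mean, beside the median of 0.802% for genes private to BC44. It was also 1.61% of the HC11 mean, and genes private to HC11 were not examined. Igfbp3 and Igfbp5 thus had opposite orders in BC44 and HC11, and the within-library ratio of the genes was not tested.

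**Figure D3:**
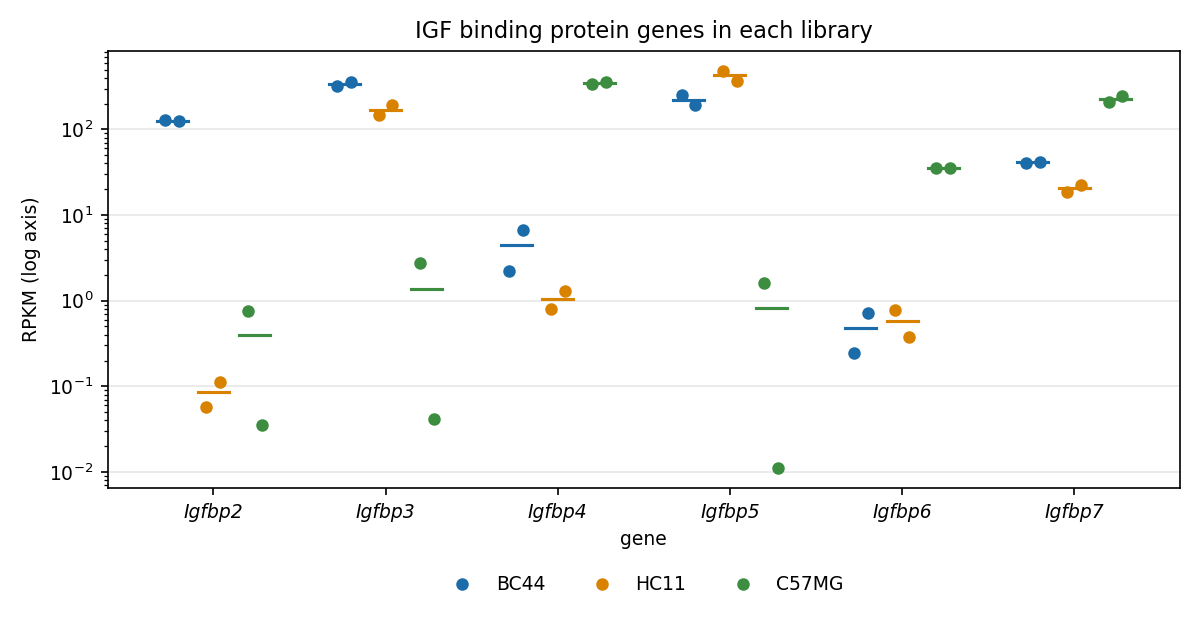
Points are single libraries and horizontal bars are line means (n = 2) of RPKM on a log axis for the 6 binding protein genes. Igfbp2, Igfbp3 and Igfbp5 lie above 100 RPKM in BC44, Igfbp4 and Igfbp7 in C57MG, and the C57MG libraries are far apart for Igfbp2, Igfbp3 and Igfbp5.

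Igfbp4 (ENSMUSG00000017493), whose product is an inhibitory binding protein cleaved by PAPP-A, was the leading member in C57MG. C57MG libraries read 340.6 and 357.5 RPKM, BC44 replicates 1 and 2 read 2.215 and 6.619, and those of HC11 0.793 and 1.28. No line overlapped another, and C57MG was 79.0-fold above the BC44 mean and 337-fold above that of HC11. HC11 minus C57MG was -7.44 on the log2 scale (SE 0.35, limma adjusted p = 1.399e-06) and BC44 minus C57MG was -6.14 (SE 0.35, 3.185e-06), or -6.77 without BC44 replicate 2. BC44 was higher than HC11 by 1.29 (SE 0.35, limma adjusted p = 0.0191). The 2 BC44 values were 0.635% and 1.90% of the C57MG mean, beside medians of 0.666% and 2.02% for genes private to C57MG in the same libraries. Without BC44 replicate 2 the BC44 to HC11 difference was 0.67 (limma adjusted p = 0.0262). The HC11 values were 0.227% and 0.367% of the C57MG mean, beside HC11 medians of 0.251% and 0.340% for private genes of C57MG. Only 23.0% and 22.7% of those private genes lay within 2-fold of their median. With the signal of the other line subtracted the difference was -1.02, a sign set by how the subtraction was built, since it took both BC44 values to 0 and nothing from HC11. The order of BC44 and HC11 for Igfbp4 was therefore not resolved. The adjusted p was 0.0572 with robust variance and 0.0707 without HC11 replicate 1.

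Igfbp6 (ENSMUSG00000023046), which encodes a binding protein with a preference for IGF-2, followed the same pattern at a lower level. C57MG libraries read 35.18 and 35.41 RPKM, BC44 replicates 1 and 2 read 0.246 and 0.722, and those of HC11 0.775 and 0.377. The C57MG libraries stood apart, and BC44 and HC11 overlapped. Igfbp6 passed the filter on low values only through the C57MG libraries, so p-values against C57MG are no separate support. The C57MG mean was 72.9 times that of BC44 and 61.3 times that of HC11, with log2 fold changes of -4.63 (SE 0.18, limma adjusted p = 5.402e-07) and -4.54 (SE 0.18, 7.135e-07) for BC44 and HC11 minus C57MG. Without BC44 replicate 2 the BC44 value was -4.86. The BC44 values were 0.697% and 2.05% of the C57MG mean, near the 0.666% and 2.02% of the private genes, and rest on an estimated 4 and 14 reads. Those of HC11 were 2.20% and 1.07% of the C57MG mean, from an estimated 16 and 6 reads. They lay above the HC11 medians of 0.251% and 0.340% for private genes of C57MG, but those genes spread widely. Their quartiles were 0.061% and 0.694% in HC11 replicate 1 and 0.0673% and 1.52% in replicate 2. The Igfbp6 value of HC11 replicate 2 lay between those quartiles. BC44 minus HC11 was -0.09 (SE 0.18, limma adjusted p = 0.703). With the signal of the other line subtracted it was -0.63 (limma adjusted p = 0.00721), where nearly all of the BC44 values and nothing of the HC11 values was taken away. Its sign turned under quantile normalization (0.07), without BC44 replicate 1 (0.14) and without HC11 replicate 1 (0.09).

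**Figure D4:**
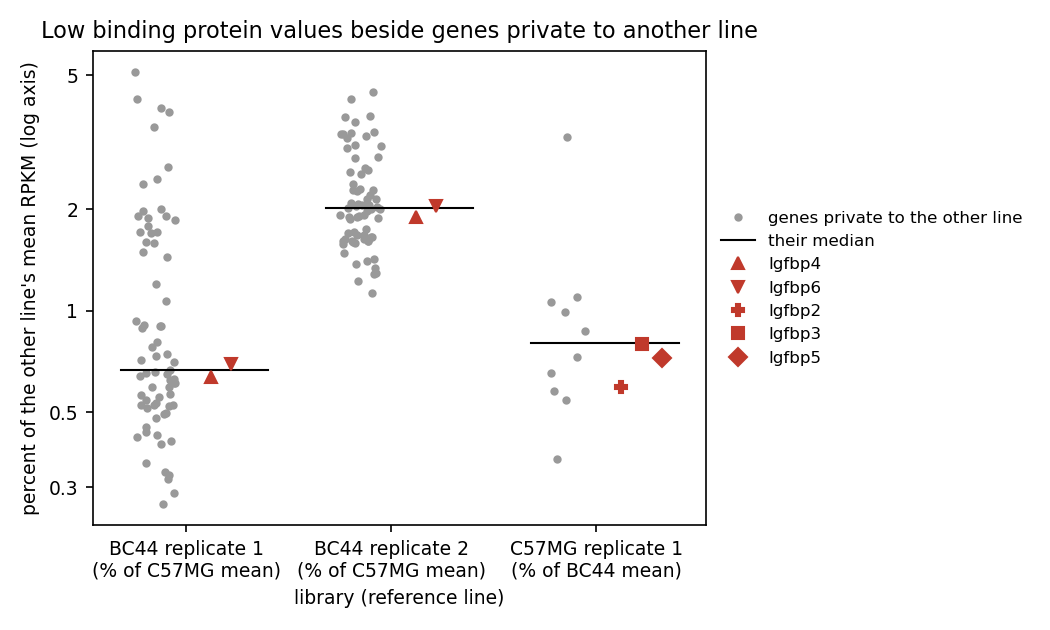
Grey points are genes private to the other line, given as a percent of that line's mean RPKM (log axis) in BC44 replicates 1 and 2 and C57MG replicate 1, with their median as a line. Red symbols are binding protein genes, and Igfbp4 and Igfbp6 in BC44 and Igfbp2, Igfbp3 and Igfbp5 in C57MG lie between 0.595% and 2.05%, near the medians of 0.666%, 2.02% and 0.802%. Igfbp3 and Igfbp5 were also high in HC11, which is not used as a reference here.

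Igfbp7 (ENSMUSG00000036256), a secreted protein with low affinity for IGFs, was the one binding protein gene above 10 RPKM in all 6 libraries. C57MG libraries read 211.2 and 243.7 RPKM, those of BC44 40.88 and 41.72, and those of HC11 18.73 and 22.61. No line overlapped another, and each step in the order C57MG, BC44, HC11 exceeded the spread between replicates. C57MG was 5.51-fold above BC44 (log2 fold change -2.43 for BC44 minus C57MG, SE 0.11, limma adjusted p = 1.005e-06) and 11.0-fold above HC11 (-3.40, SE 0.11, 3.361e-07). BC44 was 2.00-fold above HC11 (0.97, SE 0.11, 3.541e-04). The BC44 values were 18.0% and 18.3% of the C57MG mean, well over the 0.666% and 2.02% of private genes. The mesenchymal marker sum was likewise highest in C57MG, where Igfbp4, Igfbp6 and Igfbp7 were highest, and its part in these differences was not tested.

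The receptor genes varied far less than the binding proteins. Igf1r (ENSMUSG00000005533) read 31.34 and 29.43 RPKM for BC44, 22.61 and 29.35 for HC11, and 22.30 and 24.03 for C57MG. The BC44 libraries were highest, by a narrow margin over HC11 replicate 2, and HC11 and C57MG overlapped. BC44 was 1.31-fold above C57MG, which passed (log2 fold change 0.38, SE 0.13, limma adjusted p = 0.0275), but not with a BC44 or C57MG library left out (0.0554 to 0.126 over the 4 such fits). BC44 minus HC11 was 0.23 (SE 0.13, 0.174) and HC11 minus C57MG was 0.15 (SE 0.13, 0.317). Without HC11 replicate 2 BC44 minus HC11 passed (0.41, 0.0179), and HC11 minus C57MG took the other sign (-0.03, 0.793). Without HC11 replicate 1 HC11 minus C57MG passed (0.33, 0.0242).

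Insr (ENSMUSG00000005534), the insulin receptor gene, was highest in HC11. HC11 libraries read 6.042 and 6.035 RPKM, those of BC44 4.672 and 3.927, and those of C57MG 3.125 and 3.865. Both HC11 libraries were above the other 4, and the lowest BC44 value was just above the highest C57MG value. HC11 was 1.73-fold above C57MG (log2 fold change 0.65, SE 0.13, limma adjusted p = 0.00235) and 1.40-fold above BC44 (-0.41 for BC44 minus HC11, SE 0.13, 0.0298). The BC44 to HC11 call was lost without BC44 replicate 2 (0.158), HC11 replicate 1 (0.0651) or HC11 replicate 2 (0.0694). BC44 and C57MG did not differ past the threshold (0.24, SE 0.13, 0.123).

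Igf1r was the more abundant receptor gene in every library, per kilobase. The Igf1r to Insr ratio of RPKM was 6.71 and 7.49 for BC44, 7.14 and 6.22 for C57MG, and 3.74 and 4.86 for HC11. The 2 HC11 libraries were below the other 4, and BC44 and C57MG overlapped. Igf2r, which encodes the receptor that clears IGF-2, read 28.7 and 25.3 RPKM for BC44, 22.3 and 23.3 for HC11 and 24.9 and 28.1 for C57MG, and passed in no comparison (log2 fold changes 0.23, 0.02 and -0.21, limma adjusted p = 0.0925, 0.848 and 0.0948 in the order BC44 minus HC11, BC44 minus C57MG, HC11 minus C57MG). Of the other 7 genes in the list of ligands and clearance, Igf1, Igf2, Ins1, Ins2, Insrr, Igfals and Igfbp1, none was listed in the table.

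Irs1 (ENSMUSG00000055980), a docking protein of both receptors, was low in BC44. BC44 libraries read 1.496 and 1.598 RPKM, those of HC11 4.387 and 5.694, and those of C57MG 5.259 and 3.540. Both BC44 libraries were below the other 4, and HC11 and C57MG overlapped. HC11 was 3.26-fold above BC44 (log2 fold change -1.24 for BC44 minus HC11, SE 0.18, limma adjusted p = 0.00103) and C57MG 2.84-fold above it (-1.07, SE 0.18, 9.925e-04). HC11 and C57MG did not differ past the threshold (0.17, SE 0.18, 0.407), and the sign turned without C57MG replicate 2 (-0.06, 0.800).

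Irs2 (ENSMUSG00000038894), the related docking protein gene, spanned a narrow range. BC44 libraries read 3.161 and 3.261 RPKM, those of HC11 3.653 and 4.492, and those of C57MG 3.053 and 2.563. The lines did not overlap, in the order HC11, BC44, C57MG. HC11 was 1.45-fold above C57MG (log2 fold change 0.41, SE 0.12, limma adjusted p = 0.0193), a call lost without HC11 replicate 2 (0.0839) or C57MG replicate 2 (0.144). BC44 minus HC11 (-0.26, SE 0.12, 0.121) and BC44 minus C57MG (0.15, SE 0.12, 0.316) did not pass, although the first did without HC11 replicate 1 (-0.38, 0.0483). Within a library the Irs1 to Irs2 ratio was 0.473 and 0.490 for BC44, 1.20 and 1.27 for HC11, and 1.72 and 1.38 for C57MG. Irs2 was therefore the more abundant substrate gene in BC44 and Irs1 in the other 4 libraries.

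**Figure D5:**
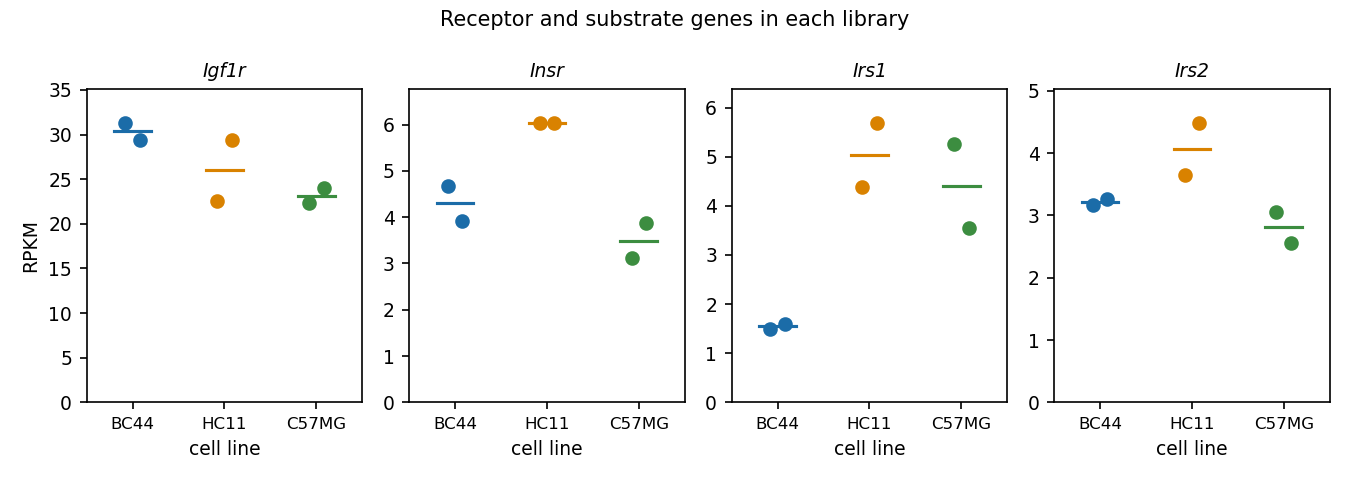
Points are single libraries and horizontal bars are line means (n = 2) of RPKM for Igf1r, Insr, Irs1 and Irs2, each on its own linear axis from 0. Irs1 is lowest in BC44 at 1.496 and 1.598 RPKM, and Insr is highest in HC11 at 6.042 and 6.035 RPKM.

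Of 8 genes that process binding proteins 7 were in the table and 6 were tested, of which 2 passed between BC44 and HC11, 5 between BC44 and C57MG and 6 between HC11 and C57MG. These are 33.3%, 83.3% and all of the 6, against 47.7%, 71.7% and 70.5% of all genes tested. The median log2 fold changes were -0.01, -1.18 and -1.44, against 0.02, 0.04 and 0.03 over all genes. Pappa, the gene of the protease that cleaves IGFBP4, stayed under 1 RPKM in every library, at 0.435 and 0.734 in HC11 and at most 0.020 elsewhere, and was not tested. The stanniocalcins, known as inhibitors of PAPP-A, had opposite patterns. Stc1 had 2.779 and 6.689 RPKM in C57MG and at most 0.061 elsewhere (log2 fold change -2.39 for BC44 and -2.36 for HC11 minus C57MG, limma adjusted p = 1.654e-04 and 1.962e-04). Stc1 passed the filter on low values only through the C57MG libraries, so these p-values are no separate support. Stc2 read 3.502 and 2.746 RPKM for BC44, 2.456 and 2.711 for HC11, and 0.021 and 0 for C57MG (2.02 and 1.83, 3.705e-06 and 7.096e-06). Htra1, which encodes a secreted protease with an IGFBP-like domain, read 268.0 and 264.7 RPKM for C57MG, 139.8 and 130.3 for BC44 and 47.9 and 80.6 for HC11, and passed in all 3 comparisons (-0.98 for BC44 minus C57MG, -2.08 for HC11 minus C57MG and 1.11 for BC44 minus HC11). Adam12, a membrane metalloprotease gene, was highest in HC11 at 19.82 and 19.86 RPKM against 9.879 and 12.30 in BC44 (-0.79, limma adjusted p = 0.00534).

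Among adaptors and genes that dampen receptor signals, 12 of 15 were listed and tested, and 8, 8 and 10 passed in the 3 comparisons, or 66.7%, 66.7% and 83.3% against 47.7%, 71.7% and 70.5% of all genes tested. Their median log2 fold changes were -0.30, 0.14 and 0.51. Between BC44 and HC11 6 of the 12 passed toward HC11 (23.0% of all genes), and against C57MG 5 of the 12 passed toward BC44 (37.5% of all genes). Between HC11 and C57MG 7 of the 12 passed toward HC11 (37.4% of all genes). Grb2, the adaptor that links receptors to Ras, had 119.8 and 119.8 RPKM in HC11 against 39.31 and 39.31 in BC44 and 44.37 and 43.20 in C57MG (-1.58 for BC44 minus HC11, SE 0.07, limma adjusted p = 3.598e-06). Enpp1, whose product can inhibit the insulin receptor, read 4.693 and 4.634 RPKM for HC11, 0.807 and 0.458 for BC44, and 0.005 and 0 for C57MG (-1.80 for BC44 minus HC11 and 2.50 for HC11 minus C57MG, limma adjusted p = 2.719e-05 and 1.656e-06). Enpp1 passed the filter only through the HC11 libraries, so these p-values are no separate support. Ptprf, a receptor phosphatase gene, read 69.59 and 64.25 RPKM for BC44, 69.57 and 56.27 for HC11, and 2.139 and 2.465 for C57MG (4.36 and 4.27 against C57MG). Dok1, a docking protein gene, was highest in C57MG at 35.27 and 36.38 RPKM. It was lowest in BC44 at 10.83 and 8.291 (-1.81 for BC44 minus C57MG, limma adjusted p = 1.310e-05). HC11 lay between them at 25.74 and 21.57 RPKM.

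The 26 genes of the PI3K, Akt, mTOR and Foxo list were all listed and tested. Between BC44 and HC11 9 passed, and 17 passed in each comparison with C57MG. These are 34.6%, 65.4% and 65.4% of the list, each below the 47.7%, 71.7% and 70.5% of all genes tested. The median absolute log2 fold changes were 0.24, 0.38 and 0.41 against 0.30, 0.57 and 0.53 over all genes. Between BC44 and HC11 5 of the 26 passed toward BC44 (24.7% of all genes). In each comparison with C57MG 10 of the 26 passed toward C57MG (34.1% and 33.2% of all genes). Without BC44 replicate 2 the count between BC44 and HC11 was lower, and so was the count over all genes. Foxo1, a transcription factor restrained by Akt, read 22.41 and 25.39 RPKM for C57MG, 8.562 and 6.792 for BC44 and 7.807 and 8.259 for HC11 (-1.53 and -1.46, limma adjusted p = 2.132e-05 and 3.142e-05). Phlpp1, an Akt phosphatase gene, read 11.44 and 10.39 RPKM for C57MG, 6.715 and 6.745 for HC11 and 2.488 and 2.246 for BC44 (-1.20 for BC44 minus HC11 and -1.82 for BC44 minus C57MG, 8.814e-05 and 3.066e-06). Pik3r3, a PI3K regulatory subunit gene, had 5.466 and 4.885 RPKM in HC11 against 14.13 and 12.49 in BC44 (1.21, 1.105e-04). Eif4ebp1, a translation repressor under mTOR control, read 261.8 and 205.7 RPKM for HC11, 151.6 and 123.0 for BC44 and 78.35 and 71.47 for C57MG (1.62 for HC11 minus C57MG, 3.496e-05). Akt1 passed in none of the comparisons (-0.14, 0.02 and 0.16, limma adjusted p = 0.188, 0.831 and 0.106).

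Genes with the pattern most like each member were found by Euclidean distance over the 6 centred log2(RPKM + 1) values among the 10759 tested genes, as a description of these libraries. Igfbp2 was closest to Gsta3 (distance 0.94) and Mme (1.21), both under 1 RPKM in HC11 and C57MG. Igfbp3 was closest to the keratin gene Krt6a (0.28) and the junction gene Jup (0.86), and Igfbp5 to Tmsb4x (0.79) and the epithelial marker Epcam (1.04). Krt6a read 3.434 and 0 RPKM in C57MG replicates 1 and 2, a step in the same direction as that of Igfbp3. Igfbp4 was closest to the chemokine gene Ccl7 (0.18) and the collagen gene Col1a1 (0.44), and Igfbp6 to Prrx2 (0.39) and Prr11 (0.44). Ccl7, Col1a1, Prrx2 and Prr11 were all among the genes private to C57MG. Low levels of another line's genes therefore enter these distances, and their part was not tested. Igfbp7 was closest to Hist1h1c (0.36) and Lpar1 (0.40), and Igf1r to Rc3h2 (0.11) and Mocs2 (0.13).

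The genes beside the binding proteins on the chromosome, chosen by position in the RefSeq gene order of GRCm38.p6, give a local comparison. On chromosome 1 Rpl37a, next to Igfbp2, had 655.1 to 761.3 RPKM in BC44 and HC11 and 343.2 and 343.5 in C57MG. On chromosome 11 Tns3, next to Igfbp3, had 18.04 to 27.25 RPKM over the 6 libraries, and Top2a, next to Igfbp4, had 115.8 to 188.3. Tns4, on the other side of Igfbp4, was at 0.578 and 0.791 RPKM in C57MG and 15.79 to 40.14 elsewhere, the reverse of Igfbp4. Polr2b, next to Igfbp7 on chromosome 5, had 41.17 to 50.15 RPKM, and Adgrl3, on its other side, had 0.66 to 1.061 in BC44 and HC11 and 0.017 and 0 in C57MG. Spryd3, next to Igfbp6 on chromosome 15, was at 26.32 and 26.70 RPKM in C57MG and at most 18.43 elsewhere.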

How the data were processed

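Poly(A) RNA-seq libraries of 3 mouse mammary lines, 2 per line, were analysed from 1 table. The values are RPKM as computed and deposited by the authors, with 3 decimals for 11417 genes. STAR and the build mm9 are named without a role or version in the submitters' processing notes. The read counter, annotation, gene lengths, scaling total and gene filter are not given in the sources used here. Every listed gene reached at least 0.114 RPKM somewhere. How reads shared by related genes were assigned, and whether counting used strand, is not given.

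Genes with at least 1 RPKM in at least 2 libraries (10759, leaving out 658) were put on the scale log2(RPKM + 1). The limma package, version 3.58.1 under R 4.3.3, fitted a mean per line to all 6 libraries, with eBayes and a variance trend. Two-sided p-values received Benjamini-Hochberg adjustment over all tested genes of a comparison, with a threshold of 0.05. The model was also run on simulated data with changes in BC44 only, a simpler setting than these libraries. No result here rests on that run. The members, gene lists, markers and alternatives were chosen with earlier results of these data known. The lists were ligands and clearance, binding protein processing, adaptors and receptor dampening, and PI3K, Akt, mTOR and Foxo. Named were all members, the first list's genes, and per other list and comparison the 2 passing genes of greatest absolute change without overlap between lines. Also named were the 2 genes closest in pattern to each member with at least 10 RPKM in a line. Pappa and Akt1 were named after their values were seen, and chromosomal neighbours by position.

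Reads per library were estimated from the steps of low RPKM values times the union exon length of GENCODE M21. Between 78.8% and 83.2% of 206 to 320 low values lay within 0.15 of a whole number of reads, against 30.0% by chance for a fixed read total. The total of each library was chosen to make this share largest, so the share is no separate check of depth. Estimated reads cover counting error only. Other steps ran in Python 3.11.15 (pandas 2.3.3 and numpy 2.4.6 for tables, matplotlib 3.10.9 for plots, scipy 1.17.1 for intervals). Alternatives tried were no filter, a pseudocount of 0.1, median-ratio scaling or quantile normalization, a filter at a mean of 5 RPKM, only the 4 libraries compared, no trend, robust variance, the replicate number as a block and leaving out each library. The subtraction of another line's signal was added after the data were seen. It took from each BC44 library the private-gene median share times the C57MG mean, and from each C57MG library the share times the BC44 mean, not below 0.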

Additional observations from a re-analysis of the deposited data

How the results depend on the processing

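Depth limits the low values: 3 reads correspond to 0.0876 to 0.116 RPKM for Igfbp2 and 0.146 to 0.192 for Igfbp6, so levels near these cannot be ranked between lines. The number of members passing in BC44 against HC11 was 5. It was 3 of 7 with a mean of at least 5 RPKM, where 3758 of 7775 genes passed. It was 8 of 10 with the signal of another line subtracted, which takes nothing from HC11, and there 5236 of 10755 genes passed. In the main fit 5129 of 10759 genes passed. With single libraries left out the count of members moved both ways and was lowest without BC44 replicate 2. The count of all genes passing was lower in each of those fits. In BC44 against C57MG 8 of 10 members passed, and 7 of 7 with a mean of at least 5 RPKM, where 5574 of 7775 genes passed. In HC11 against C57MG 7 members passed, and the lowest count over all alternatives was 5. The count of all genes passing there was 7590, and 5476 at its lowest. Both comparisons also moved with single libraries left out. Igfbp2 and Igfbp6 fall under the filter when a library of their only high line is left out. In BC44 against HC11 the PI3K, Akt, mTOR and Foxo list gave 9 passing genes. It gave fewer with single libraries left out, where the count of all genes passing was lower too. In BC44 against C57MG the processing list gave 5, and 3 with a mean of at least 5 RPKM, where 4 genes are tested. Of all genes 7713 of 10759 and 5574 of 7775 passed in the same fits.

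Signs turned as follows. Igfbp4 in BC44 minus HC11 went from 1.29 to -1.02 with the signal of another line subtracted, which by its construction sets BC44 to 0 there. Igfbp6 in BC44 minus HC11, -0.09, was 0.07 under quantile normalization and -0.33 to 0.14 with single libraries left out. In HC11 minus C57MG, Igfbp2 (-0.31) was 0.09 with the signal subtracted and -0.69 to 0.07 with single libraries left out, Igf1r (0.15) was -0.03 to 0.33 and Irs1 (0.17) was -0.06 to 0.40. The replicate numbers do not pair the libraries by any label, and deviations of same-numbered libraries correlated across genes at 0.354, -0.039 and 0.038. Adding the replicate block let 5350, 7875 and 7721 genes pass, against 5129, 7713 and 7590 without it, and 6, 8 and 7 members against 5, 8 and 7. Igfbp5 in BC44 minus HC11 was the member added. The block gave counts of 2, 5 and 6 for the processing list, 8, 8 and 10 for adaptors and 10, 17 and 17 for PI3K, Akt, mTOR and Foxo, and 0 for ligands and clearance in each comparison. Other changes of a call, such as those of Igfbp3, Igfbp5, Insr, Igf1r and Irs2, are given beside the results, and their cause was not tested.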
